A study of Artemisia annua with 12 samples.

Results

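The first 2 h under UV-B were examined in leaves of Artemisia annua, the sweet wormwood from which the antimalarial artemisinin is extracted, by comparing 3 libraries harvested at 2 h with 3 harvested at 0 h, 6 of the 12 libraries of the study. All seedlings were wild type, of the high-artemisinin cultivar Huhao 1, and were 6 weeks old. They grew in a greenhouse under a long-day cycle. Lamps emitting narrowband UV-B (at 1.5 μmol per square metre and second, from Philips TL20W/01RS tubes) were added to the normal light for 0 or 2 h. The other 6 libraries, at 4 and 6 h, entered the filter on levels and the estimate of each gene's spread. They also entered the classes by level, the alternative scaling of libraries and the descriptions of later levels. Each library was made from the most recently expanded leaf of 3 seedlings, mixed, per the labels' protocols, so differences between single plants are averaged within a library. The labels give no seedlings held for 2 h without the lamps, so UV-B and the passing of 2 h of the day cannot be told apart. Genes at a value of 1 or more in at least 3 of the 12 libraries were compared, which left 25841 of 63226 listed gene identifiers.

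UV-B is the most energetic part of sunlight that reaches plants. In Arabidopsis it is perceived by the photoreceptor UVR8, which in UV-B separates into monomers, binds the ubiquitin ligase COP1 and so stabilises the transcription factor HY5, an activator of genes for flavonoid sunscreens and DNA repair; stronger UV-B also sets off general stress and wound signalling. In Artemisia annua, artemisinin is made in glandular trichomes on the leaf surface. As the table has identifiers without gene names, none of these genes could be looked up, the labelled leaf tissue could not be checked against marker genes, and the genes below are described by level, size of change and share of the total.

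Values are the authors' normalised expression signal, whose totals lay between 851404 and 868133 in the 6 libraries. The sources used here do not state absolute read depth. For genes listed in only 2 to 5 of the 12 libraries the ratio of a gene's values in 2 libraries clustered at a common value, as it does when most such values stem from equally few reads. By the peak of these ratios, over 266 and 253 genes, the same reads were worth 1.16 and 1.23 times as much in replicate 1 at 2 h as in replicates 2 and 3, which corresponds to a shallower library. At 0 h they were worth 0.898 and 0.856 times as much in replicate 1 as in replicates 2 and 3, over 229 and 201 genes.

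Replicate 1 at 2 h also stood apart in its values. For the 89 genes with a mean of 1000 or more over all libraries, the median difference between 2 libraries, without sign and on the scale log2(value + 1), was 0.0209 to 0.0276 for the pairs at 0 h and 0.0275 between replicates 2 and 3 at 2 h. It was 0.0959 and 0.108 between replicate 1 and the other libraries at 2 h. Replicate 1 lay above both others for 40 of the 89 genes and below both for 44, so the difference had no common direction. Among genes at a mean of 1 to 10 the pairs with replicate 1 differed by 0.176 and 0.180, and the remaining pair at 2 h by 0.154. Whether read depth has a part in this was not tested. Counts of called genes without replicate 1 are given below beside the main counts.

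After 2 h, most tested genes had changed, and more had risen than fallen. In limma's moderated test over the whole table, 9344 genes (36.2% of the 25841 tested) were higher and 5378 (20.8%) lower at a Benjamini-Hochberg adjusted p under 0.05, together 57% of the tested genes. Without replicate 1 of the 2 h harvest these numbers were 8536 and 5224. The typical change was small, with a median of 0.66 on the log2 scale (1.58-fold) for genes that rose and of -0.606 (1.52-fold) for genes that fell. Changes of less than 1.5-fold made up 42.9% of the rises and 47.7% of the falls. In a bulk sample such as a leaf, fewer cells of a type and less RNA per cell cannot be told apart.

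The balance between rises and falls depends on how libraries are scaled. Over all tested genes the log2 change had a median of 0.13, and median-ratio scaling of the libraries, which centres on the typical gene, brought it to 0.0049, a shift of 0.122. With that scaling 50.8% of the called genes were higher in place of 63.5%, and changes are to be read relative to this shift. Among genes changed 2-fold or more, 68.5% were higher as deposited and 58.4% after scaling.

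Larger changes were more often rises. Rises were 61% of the called changes under 1.5-fold, 66.2% of those from 2- to 4-fold, 74% of those from 4- to 8-fold and 77.2% of those from 8- to 16-fold. Beyond 16-fold there were 72 rises and 10 falls (87.8% rises). After median-ratio scaling the share of rises was 47.2% under 1.5-fold, where falls were then the larger part, 55.1% from 2- to 4-fold and 84.9% beyond 16-fold. With a pseudocount of 0.1, which lets genes near 0 reach larger folds, rises were 76.6% from 8- to 16-fold but 67.9% beyond 16-fold.

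**Figure D1:**
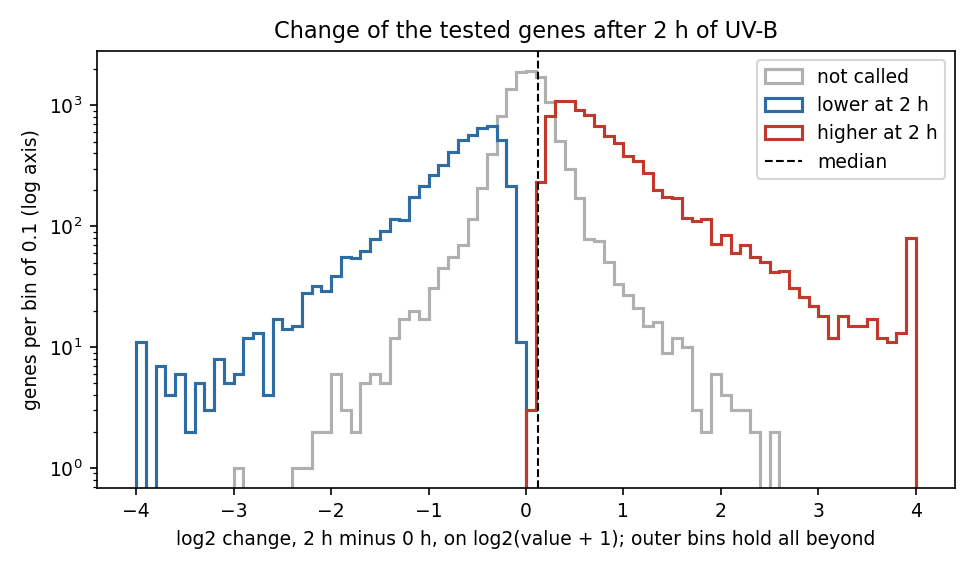
Number of tested genes (log axis) by log2 change from 0 to 2 h on the scale log2(value + 1), in bins of 0.1, for genes called higher, called lower and not called; the outermost bins hold all genes beyond them, and the dashed line is the median of 0.13. The curve of genes that rose reaches further out than that of genes that fell, with 72 against 10 genes beyond 16-fold.

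A test against a 2-fold change itself found fewer genes. At least a 2-fold change was estimated for 2658 genes that rose (10.3%) and 1221 that fell (4.73%), or 2617 and 1218 without replicate 1 at 2 h. The change exceeded 2-fold beyond its own error for 1384 genes that rose (5.36%) and 538 that fell (2.08%), by limma's test against a minimum fold at an adjusted p under 0.05, or for 1280 and 506 without replicate 1 at 2 h. The other estimates of 2-fold or more were therefore not separated from a smaller change. Conversely, 235 genes had an estimate of 2-fold or more and did not pass the test against no change.

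Many genes had a change held within narrow limits on the scale log2(value + 1). For 10433 genes (40.4%) the 95% confidence interval of the change lay wholly within 1.5-fold in either direction (9845 without replicate 1 at 2 h). Of these, 3352 had a small change that passed the test. The 11119 genes that were not called divide into 7081 with such a narrow interval and 4038 whose interval reached beyond 1.5-fold, for which a change of that size is not excluded. With a pseudocount of 5, which draws low values together, 18192 genes had an interval within 1.5-fold, and with 0.1 there were 7754. For a gene near 0 at both harvests a narrow interval can come from the pseudocount and does not show a lack of change. Of the tested genes, 652 were under 1 in all 6 libraries.

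The libraries of the 2 harvests were separate for most called genes. All 3 values at 2 h were above all 3 at 0 h for 10146 tested genes (39.3%) and below them for 5946 (23%). This was so for 9077 of the 9344 genes called higher and for 5196 of the 5378 called lower. Calls and separation rest on the same values, so the separation is no independent support for the calls. Each 2 h library was also set against genes called without it. The filter on levels had used all 12 libraries, the left-out one among them, so the choice was not fully independent of that library. Of the genes at 2-fold or more in the model without replicate 1, 98.9% of 2617 rises and 99.6% of 1218 falls had the same direction in replicate 1, and 87.8% and 80.2% were at 2-fold or more there. For replicates 2 and 3 left out in turn, 98.5% to 99.4% had the same direction and 82.5% to 85.3% reached 2-fold. These shares all use the same 0 h libraries.

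The largest rise was that of CTI12_AA522570, which stood at 1.64, 3.49 and 4.08 in the 3 libraries at 0 h and at 1034.14, 1210.16 and 1331.21 at 2 h. The libraries at 2 h were all more than 100 times above those at 0 h, and the mean differed 388-fold (log2 change 8.24 ± 0.20 SE on log2(value + 1), limma adjusted p = 2.24e-10). CTI12_AA050640 stood at 4.99, 4.73 and 6.09 at 0 h and at 812.82, 750.90 and 781.27 at 2 h, a 148-fold difference of the means (log2 change 6.97 ± 0.068 SE, limma adjusted p = 3.99e-14). Its replicates were close at both harvests. The later libraries set these genes apart. CTI12_AA522570 was at 1336 ± 50.8 (SD, n = 3) at 4 h and 1339 ± 23.4 at 6 h, whereas CTI12_AA050640 was at 250.6 ± 9.81 at 4 h, below every 2 h library, and at 487.2 ± 12.9 at 6 h, between its 2 h and 4 h levels.

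The largest fall was that of CTI12_AA476540. It stood at 300.27, 341.65 and 319.85 at 0 h and at 2.02, 2.18 and 7.08 at 2 h, 85.3-fold lower in the mean (log2 change -6.23 ± 0.783 SE, limma adjusted p = 6.86e-05). The groups were far apart, while replicate 3 at 2 h was more than 3 times as high as the other libraries of that harvest. At 4 h it was listed at 2.28, 0 and 10.2 and at 6 h at 2.74, 0.20 and 0.42, so it remained low with a wide spread between replicates. CTI12_AA364110 was at 27.04, 15.03 and 51.62 at 0 h. It was listed at 0 in all 3 libraries at 2 h, as in all 6 later ones. With the spread estimated over all 12 libraries, those later ones at 0 among them, it had a limma adjusted p of 1.7e-07. In a model of only the 6 libraries compared it had a limma adjusted p of 0.000186. Its values at 0 h differed among themselves more than 3-fold. As it fell to 0, its log2 change rests on the pseudocount: it was -4.84 with 1, -8.11 with 0.1 and -2.73 with 5. Its rank among the falls rests on it too, as with 5 it was not among the 2 genes lowered 8-fold or more. The products of these 4 genes are not known here, and whether any of them shares reads with a near-identical copy could not be checked.

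**Figure D2:**
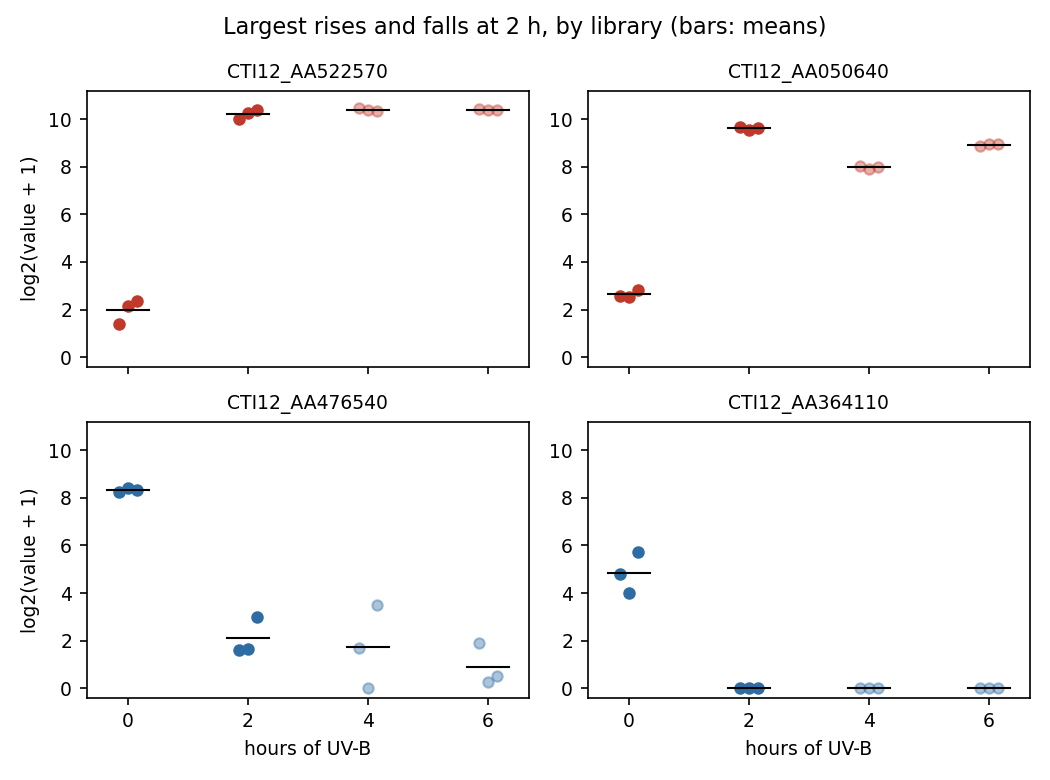
Values of the 2 genes with the largest rise (red) and the 2 with the largest fall (blue) at 2 h, as log2(value + 1), in each of 3 libraries at 0, 2, 4 and 6 h (points; paler for 4 and 6 h) with the mean of each harvest (bars). CTI12_AA522570 stayed near its 2 h level, CTI12_AA050640 dropped to 250.6 at 4 h, CTI12_AA476540 stayed low with spread, and CTI12_AA364110 was listed at 0 in every library after 0 h.

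Most of the strongest rises came from genes at low levels before UV-B. In the 211 genes raised 8-fold or more (213 without replicate 1 at 2 h), the median of the mean values was 0.8 at 0 h and 26.7 at 2 h, and 115 of them had a mean under 1 at 0 h. Only 1 of them was at 100 or more before UV-B and 33 were at 2 h. In the whole table, 1095 ± 11.1 genes (SD, n = 3) stood at 100 or more at 2 h, with 25841 genes tested. Such levels thus made up a larger part of this class than of the table. The 33 counts means over 3 libraries and the 1095 counts single libraries, so the measures are not quite alike. An 8-fold rise on log2(value + 1) itself asks for a raised level at 2 h, so the difference is in part set by the rule. The 211 genes were picked by the size of their rise, so their levels are a description. Of all 25841 tested genes, 19533 were at 1 or more in all 6 libraries. A gene with a mean under 1 at 0 h passed the filter only with the help of exposed libraries. A low start among large rises is therefore partly built in. Among the 20 largest rises the mean at 0 h was under 1 for 14, and the lowest mean at 2 h was 42.3. These counts depend on the pseudocount, and 848 genes were raised 8-fold or more with 0.1 and 60 with 5.

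The strongest falls were fewer and mostly ended near 0. In the 51 genes lowered 8-fold or more (55 without replicate 1 at 2 h), the median of the mean values was 12.9 at 0 h and 0.0133 at 2 h, and 41 had a mean under 1 at 2 h. On the scale log2(value + 1), a gene that starts at 12.9 must end under 1 to count as lowered 8-fold. For genes with such low starts, an end under 1 is therefore set by the rule. Of these genes 2 had been at 100 or more before UV-B. The 20 largest falls began at means of 12 to 321 and ended at 6.66 or less, and 16 of them ended under 1. With a pseudocount of 0.1 there were 334 such falls and with 5 there were 2.

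Some genes were listed at 0 in a whole harvest. Among the tested genes, 292 were at 0 in all 3 libraries at 0 h and above 0 in all 3 at 2 h, with a median level of 2.33 and a highest level of 92 at 2 h; 30 of them were at 10 or more. The reverse held for 164, with a median level of 2.55 and a highest level of 31.2 at 0 h, 13 of them at 10 or more. As genes were tested if they reached 1 in at least 3 of the 12 libraries, any that did so only at 1 harvest had to differ. Between the harvests compared, 1322 tested genes were at 1 or more in all 3 libraries at 2 h and in none at 0 h. The reverse held for 580, in all 3 at 0 h and in none at 2 h. These counts set no condition on 4 and 6 h, so they also hold genes that reached 1 at later harvests. A further 1932 passed only with the help of the 4 and 6 h libraries, and 652 of them were under 1 in all 6 libraries compared here. At 1 or more in all 6 were 19533 genes.

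In terms of the summed values, 24% of the total was redistributed between genes within 2 h. This share is the summed gain of all genes whose part of the total grew, which equals the summed loss of the others. Between a library at 0 h and a library at 2 h it was 24.2% to 24.6% for the 9 pairs. Between libraries of the same harvest it was 2.69% to 3.04% at 0 h and 3.12% to 5.19% at 2 h, where the 2 pairs with replicate 1 gave 5.07% and 5.19%. The exchange between harvests was thus above that of every pair within a harvest, and the 24% of the mean shares did not move by more than 0.1 points when any of the 6 libraries was left out.

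The loss was concentrated in fewer genes than the gain. Of all listed genes, 33 accounted for 50% of the loss and 142 for 50% of the gain. The 10 genes with the largest loss held 34.3% of it, and the 10 with the largest gain 22.8%. These genes were picked by the change itself, so their values are a description.

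The largest single loss, 2.34 points of the total, was that of the most abundant transcript in the leaf. It was at 64973.23, 66949.90 and 64963.83 at 0 h and at 46610.80, 43207.67 and 44812.29 at 2 h (limma adjusted p = 1.88e-08, log2 change -0.549 ± 0.0273 SE). Although the change was less than 1.5-fold, the groups did not overlap. The next was at 41842 ± 603 (SD, n = 3) at 0 h and 26375 ± 645 at 2 h. The third fell from 17206 ± 357 to 4824 ± 126 (limma adjusted p = 0.000102, log2 change -1.83 ± 0.243 SE). The fourth fell by a similar fold, from 9771 ± 151 to 2858 ± 28.7 (limma adjusted p = 2.21e-13, log2 change -1.77 ± 0.0215 SE). Each SE and p uses the spread over all 12 libraries, those at 4 and 6 h among them. The larger SE of the third gene thus does not describe its replicates at 0 and 2 h alone, which were close.

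The largest gain, 1.44 points, was that of a gene at 201.43, 199.85 and 211.94 at 0 h and 11297.10, 13051.89 and 13227.37 at 2 h, 61.3-fold higher in the mean (log2 change 5.93 ± 0.0504 SE, limma adjusted p = 3.48e-14). Replicate 1 was the lowest of the 2 h libraries and still more than 50 times above every 0 h library. The next 2 gains were rises of 6.15-fold and 5.44-fold, from 1277 ± 12.4 to 7848 ± 593 and from 1441 ± 16.1 to 7843 ± 356 (SD, n = 3). The fourth was already abundant at 4824 ± 70 and reached 10124 ± 40.8 (2.1-fold).

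By size of change, the exchange rested mainly on genes that changed by less than 8-fold. The 4157 genes that fell by less than 2-fold held 47.3% ± 0.135 (SD, n = 3) of the total at 0 h and 32.6% ± 0.235 at 2 h. The 1170 that fell 2- to 8-fold went from 12.5% ± 0.0398 to 4.5% ± 0.11. On the other side, the 2447 genes that rose 2- to 8-fold went from 5.25% ± 0.00803 to 16.5% ± 0.193, and the 6686 that rose by less than 2-fold from 18.5% ± 0.0547 to 26.9% ± 0.259. The 211 genes raised 8-fold or more held 0.111% ± 0.00195 and then 3.39% ± 0.105, and the 11119 genes not called held 15.9% at both harvests. The classes were set by the same change, so these shares show where the total went and are no test.

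**Figure D3:**
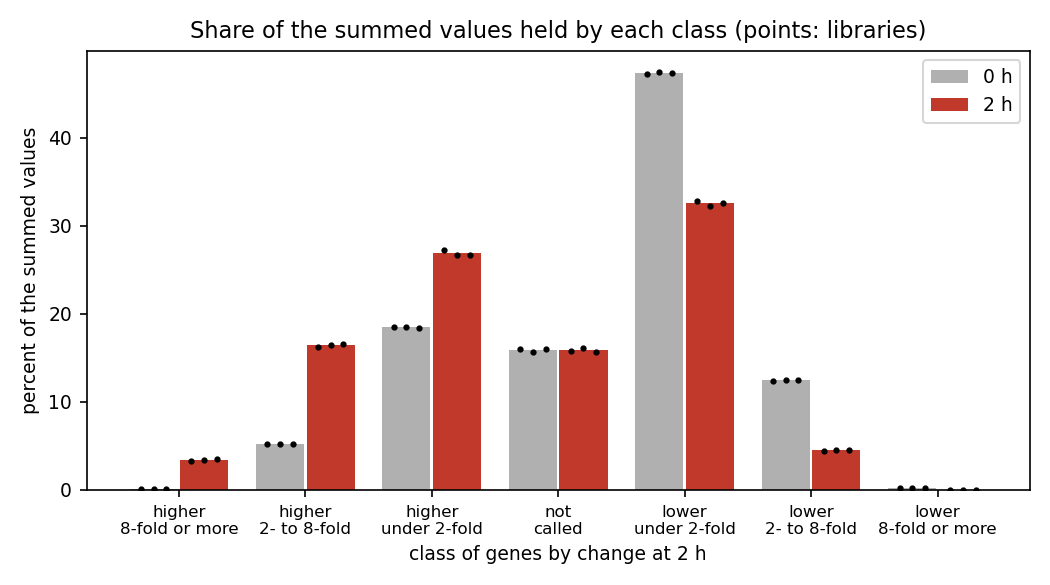
Percent of the summed values held at 0 h (grey) and 2 h (red) by tested genes grouped by their change at 2 h; bars are means of 3 libraries and points are the libraries. Genes that fell by less than 2-fold gave up the most, from 47.3% to 32.6%, and genes that rose 2- to 8-fold gained the most, from 5.25% to 16.5%.

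Expression at 2 h was spread over more genes. The smallest number of genes that together held 50% of the summed values was 178, 175 and 174 in the 3 libraries at 0 h and 326, 301 and 299 at 2 h. Every 2 h library needed more genes than every 0 h library, 308.7 ± 15 against 175.7 ± 2.08 (SD, n = 3; two-sided p = 0.1 in an exact permutation test, which with 3 libraries against 3 can give no smaller p). Genes at 10 or more numbered 8542, 8592 and 8509 at 0 h and 9492, 9253 and 9274 at 2 h (exact permutation test, p = 0.1), a difference of 792 in the means that median-ratio scaling reduced to 78. At the upper end the order was reversed, as 98, 95 and 98 genes stood at 1000 or more at 0 h and 83, 88 and 89 at 2 h (exact permutation test, p = 0.1), a difference of -10.33 in the means and of -18 after that scaling. Genes at 100 or more numbered 992.3 ± 4.73 at 0 h and 1095 ± 11.1 at 2 h, but after median-ratio scaling the difference turned to -8.33 (exact permutation test, p = 0.7), so its direction is not settled.

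The share of genes that changed depended on their level, and among calls of any size the most abundant leaned to falls. Levels are means over all 12 libraries. Of the 89 genes at 1000 or more, 33 (37.1%) rose and 48 (53.9%) fell, with a median log2 change of -0.299. Of the 994 genes at 100 to 1000, 481 (48.4%) rose and 384 (38.6%) fell, and of the 8402 at 10 to 100, 3593 (42.8%) and 2136 (25.4%). Of the 14440 genes at 1 to 10, 32.5% rose and 17.4% fell. After median-ratio scaling falls outnumbered rises at 10 to 100 (2935 against 2732) and at 100 to 1000 (454 against 421) as well as at 1000 or more (55 against 30), while at 1 to 10 there were 3722 rises and 3402 falls. Over calls of any size, only the lean to falls at 1000 or more and the lean to rises below 10 held under both scalings. Among the genes at 1000 or more that changed 2-fold or more, 16 rose (18%) and 12 fell (13.5%) as deposited, and 13 rose and 19 fell after scaling, so the direction of that balance is not settled.

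Precision differed by level as well. The median standard error of the log2 change was 0.0324 at 1000 or more, 0.0764 at 10 to 100 and 0.135 at 1 to 10. A small change was thus harder to call at low levels. Changes of 2-fold or more were called for 19.4% rises and 8.05% falls at 100 to 1000 and for 9.85% and 3.77% at 10 to 100. With a pseudocount of 0.1 these shares were 19.4% and 8.05%, and 10.7% and 4.11%; at 1 to 10 they went from 9.77% and 4.65% to 15.9% and 7.49%.

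**Figure D4:**
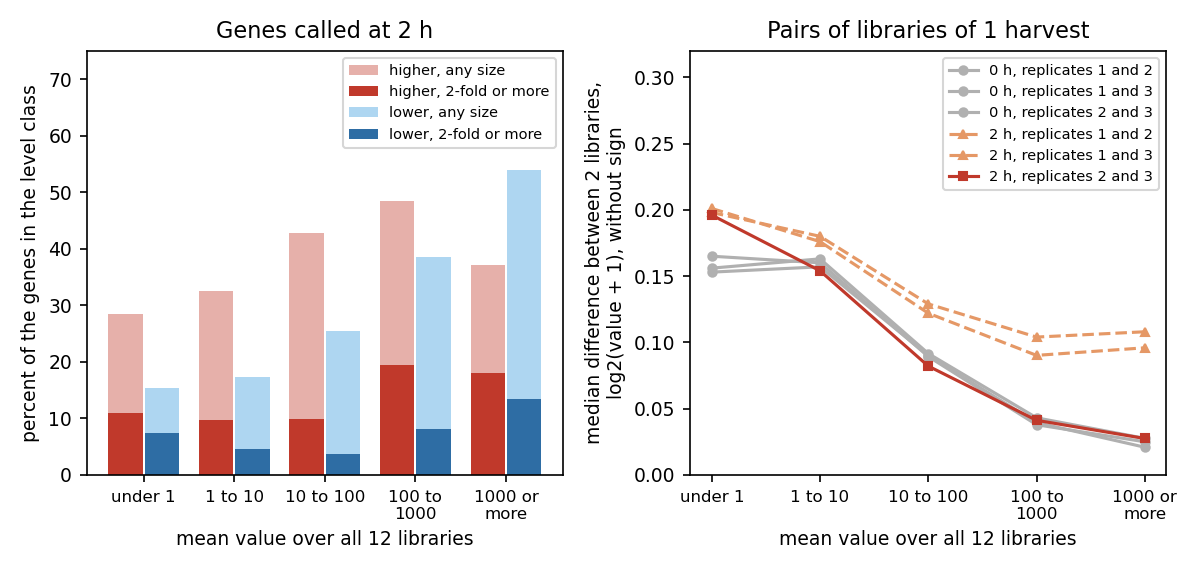
Left, percent of tested genes called higher or lower at 2 h (pale) and called at 2-fold or more (dark), by mean value over all 12 libraries, values as deposited. Right, median difference without sign between 2 libraries of the same harvest, on log2(value + 1): both pairs with replicate 1 at 2 h (dashed) lie above the other pairs at levels of 100 or more, at 0.0902 to 0.108.

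In the later libraries the class medians kept their order, and those of the called classes lay closer to 0 h than at 2 h. The share of the total held by the 211 genes raised 8-fold or more grew, from 3.27% to 3.46% at 2 h to 4.03% to 4.11% at 4 h. The shares of the other called classes moved back towards 0 h. The 211 genes raised 8-fold or more had median log2 differences from the 0 h mean of 3.73, 3.68 and 3.72 in the 2 h libraries, 3.37 to 3.46 at 4 h and 3.37 to 3.45 at 6 h. Of these, 177 were at least 2-fold above 0 h at 6 h, 127 of them 8-fold or more, and 33 were within 2-fold of it. The 51 genes lowered 8-fold or more had medians of -3.55 to -3.53 at 2 h and -3.17 to -3.09 at 6 h, and 38 were at least 2-fold below 0 h at 6 h. The 1170 genes that fell 2- to 8-fold had medians of -1.4 to -1.38 at 2 h and of -0.92 to -0.91 at 4 h. All these differences share the 0 h libraries, and genes chosen for a large change at 2 h tend to have high estimates there.

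The genes not called at 2 h had a higher median at 4 h in the values as deposited. Their medians were 0.0497, 0.00668 and 0.0046 in the 2 h libraries and 0.138 to 0.164 at 4 h, without overlap between the harvests. The scale factors of median-ratio scaling were 0.895 to 0.906 at 0 h, 0.988 to 1.04 at 2 h and 1.07 to 1.09 at 4 h, so the medians of all classes would move with that scaling, most between 0 h and the exposed harvests.

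**Figure D5:**
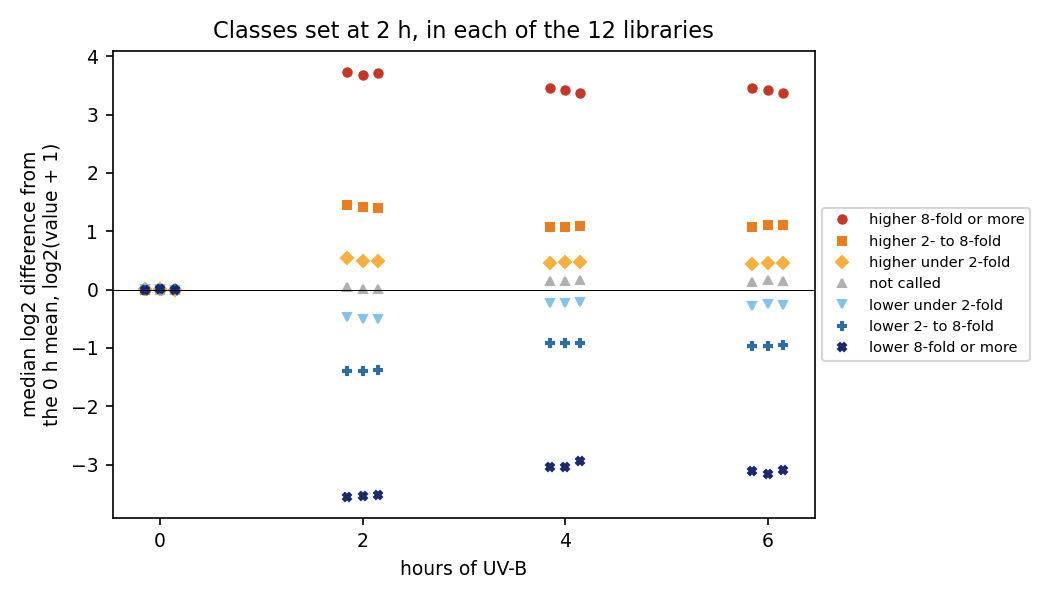
Median log2 difference from the 0 h mean, on log2(value + 1), of the 7 classes of genes set by their change at 2 h, in each of the 12 libraries (1 point per library) at 0, 2, 4 and 6 h of UV-B. The 3 libraries of a harvest lie close together, and the classes keep their order, with the 211 strongest rises at 3.37 to 3.73 at the exposed harvests.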

How the data were processed

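RNA of 12 leaf libraries was sequenced, and the authors deposited 1 table of normalised expression signal with 12 columns and 2 decimals; its header names no unit. Totals are nearly equal. Whether the unit is TPM or FPKM, which are both scaled by gene length, remains unknown. Tools listed in the submitters' processing notes, with no role, are DESeq, Salmon and HISAT2 2.1.0. The genome build used by the authors is not stated in these sources. Columns carry the group and replicate of the sample titles (0 columns of other samples). No counts were recovered and no count model was run.

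Values were taken as log2(value + 1), which understates changes of low genes; folds of single genes are ratios of means. A limma 3.58.1 model (R 4.3.3, variance trend, robust estimation) held all 12 libraries in 4 groups without a replicate term; the contrast was 2 h minus 0 h. A gene was called where its Benjamini-Hochberg adjusted p was under 0.05; all adjusted p-values are limma's. Limma's test against a minimum fold of 2 and 95% intervals came from the same model. Single values per library had an exact two-sided permutation test. The procedure was checked on simulated data. The labels call the libraries biological repeats; between 1.99% and 3.27% of values were identical within a harvest, so no pair of columns is a copy. Named genes are the 2 largest rises and 2 largest falls on log2(value + 1) among called genes whose libraries do not overlap. The comparison and rules were chosen with earlier results of these data known. Alternatives were pseudocounts of 0.1 and 5, a replicate block, other filters, median-ratio scaling, limma without trend or robust estimation, a model of only the 6 libraries, and leaving out each of them.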

Additional observations from a re-analysis of the deposited data

How the results depend on the processing

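With a pseudocount of 5 in place of 1, genes at 2-fold or more numbered 1075 higher and 444 lower, those beyond 2-fold by the test against that fold 607 and 210, those held within 1.5-fold 18192, and the median log2 change was 0.07. It was 0.16 with 0.1, 0.033 without a filter, when 23088 genes were held within 1.5-fold among 41514 tested, and 0.0049 with median-ratio scaling. Genes at 8-fold or more, alternatives chosen after seeing the data, numbered 848 and 334 with 0.1 and 60 and 2 with 5. With median-ratio scaling the difference in genes at 100 or more turned to -8.33, that in genes at 10 or more went from 792 to 78 and that in genes at 1000 or more from -10.33 to -18. The median SD of the 89 most abundant genes at 2 h was 0.0615, and 0.0195 without replicate 1, where only 2 libraries remain. The scaled differences in genes at 10 or more and at 1000 or more kept their direction, and are counted among the remaining 216 values under the alternatives. Among these 216, counts of called genes stayed within 1.5 times the main count. The other values kept their direction and their side of any threshold, whatever their size. All values of the 4 named genes are among the 216. Replicate numbers did not pair the libraries: deviations of same-numbered libraries correlated at -0.0093, -0.0034 and 0.014 across genes, and not every library correlated best with its own number. A replicate block gave 9164 genes higher and 5251 lower, together 14415 in place of 14722, of which 14141 were shared. Absolute depth is unknown, and it limits what can be said of genes listed at 0.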
